A study of Mus musculus with 24 samples.

Results

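The nuclear genes for the subunits and assembly factors of oxidative phosphorylation were followed in mouse hindlimb muscle after ligation of the femoral artery. They were chosen by gene symbol, namely symbols that begin with Nduf, Uqcr or Atp5, or with Cox followed by 4, 5, 6, 7 or 8, together with Sdha, Sdhb, Sdhc, Sdhd, Cyc1 and Cycs. The rule found 94 of the 24016 gene symbols in the table. Of these, 36 were counted under complex I, 4 under complex II, 10 under complex III with cytochrome c, 20 under complex IV, 15 under complex V and 9 as assembly factors. For 92 of the 94 the level was high enough for the test, and Cox7b2 and Cox8c, isoform genes known mainly from testis, were not tested.

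Poly(A) RNA was sequenced from 24 samples in 4 groups of 6, all from mice of C57BL/6 background on day 7 after the ligation of 1 femoral artery. The groups were the ischemic gastrocnemius of mice with type 2 diabetes (T2DM), the normoxic adductor of T2DM mice, the ischemic gastrocnemius of control mice and the normoxic adductor of control mice. Every group therefore came from operated animals, and the muscle contrast combines ischemia with the difference between a calf muscle and a thigh muscle. The labels used here do not say how diabetes was produced or whether same-numbered samples came from the same animal, so the p-values here rest only on the spread among the sequenced samples, which may be technical.

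Complexes I to IV pass electrons from NADH and succinate to oxygen and pump protons across the inner mitochondrial membrane, and complex V, the ATP synthase, uses the proton gradient to make ATP. Several small subunits of complex IV, the cytochrome c oxidase, come in pairs of isoforms. Cox6a2, Cox7a1 and Cox8b encode the forms of heart and skeletal muscle, and Cox6a1, Cox7a2 and Cox8a encode forms found in most other tissues. Muscle fibres depend on this system for sustained work, and immature muscle cells carry more of the ubiquitous forms.

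The promoters of 4 of these isoform genes are shown because the largest differences between the muscles fell on Cox6a1 and Cox8a, while Cox8b is the muscle partner of Cox8a, and Cox7a1 is a muscle isoform whose share of its own pair is followed too. Each window runs from 250 bases before to 50 after the gene's start, 5′ to 3′ on the gene's strand, from RefSeq with build GRCm38.p6. Cox6a1 lies at chr5:115348909-115349208 on the minus strand, Cox8a at chr19:7217567-7217866 on the minus strand, Cox7a1 at chr7:30183921-30184220 on the plus strand and Cox8b at chr7:140900397-140900696 on the minus strand. Capitals mark matches to the motifs searched.
Cox6a1: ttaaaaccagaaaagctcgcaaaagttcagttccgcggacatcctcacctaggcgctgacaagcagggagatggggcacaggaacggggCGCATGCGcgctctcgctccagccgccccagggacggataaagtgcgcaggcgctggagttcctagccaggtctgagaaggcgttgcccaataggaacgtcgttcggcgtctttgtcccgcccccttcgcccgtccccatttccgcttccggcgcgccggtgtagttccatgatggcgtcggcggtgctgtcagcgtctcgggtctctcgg
Cox8a: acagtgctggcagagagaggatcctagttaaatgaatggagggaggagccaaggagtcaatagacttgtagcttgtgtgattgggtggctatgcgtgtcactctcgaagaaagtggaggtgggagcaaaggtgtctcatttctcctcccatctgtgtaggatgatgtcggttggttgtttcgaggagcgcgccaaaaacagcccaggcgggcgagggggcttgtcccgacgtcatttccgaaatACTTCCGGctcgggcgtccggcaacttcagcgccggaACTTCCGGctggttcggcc
Cox7a1: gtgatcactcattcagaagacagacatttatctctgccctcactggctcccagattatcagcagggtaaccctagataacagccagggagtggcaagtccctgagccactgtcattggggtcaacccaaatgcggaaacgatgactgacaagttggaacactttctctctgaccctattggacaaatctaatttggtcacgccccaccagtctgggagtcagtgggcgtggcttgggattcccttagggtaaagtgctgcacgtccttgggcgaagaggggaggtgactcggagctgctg
Cox8b: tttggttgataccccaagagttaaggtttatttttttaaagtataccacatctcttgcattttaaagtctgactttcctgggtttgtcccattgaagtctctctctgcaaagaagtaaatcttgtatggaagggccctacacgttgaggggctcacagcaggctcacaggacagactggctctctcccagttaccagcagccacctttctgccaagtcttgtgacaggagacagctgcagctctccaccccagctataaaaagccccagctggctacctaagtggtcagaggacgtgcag

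Motifs of 4 regulators of mitochondrial genes were searched on both strands, namely CGCATGCG for NRF1, CCGGAAGT for ETS factors such as GABP, TCAAGGTCA for the estrogen-related receptors and AAGATGGC for YY1. Cox6a1 held the NRF1 letters once, beginning at position -161 from the start. Cox8a held the ETS letters in both copies on the opposite strand, at -6 and 31. Cox7a1 and Cox8b held none of the 4 motifs in this window, which says nothing of the factors themselves. The window of Cox8a held 19 CG dinucleotides and that of its partner Cox8b 2, and the window of Cox7a2 held 20 and that of its partner Cox7a1 7. The window of Cox6a1 held 32, against a median of 20 over the members matched and 7 over all promoters in the table.

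Of the 94 members, 77 were matched to a promoter. The NRF1 letters were found in 12 of them (15.6%), against 2.07% of the 27025 genes in the promoter table. The YY1 letters were found in 11 members (14.3%), against 3.19% of all genes. The ETS letters were found in 5 members (6.49%), against 4.31% of all genes, and the letters of the estrogen-related receptors in 2 (2.6%), Atp5g3 and Sdhd, against 0.466%. Among the members with the NRF1 letters were Cycs, Cox6a1, Atp5k, Uqcr11 and Ndufaf5, which appear in the comparisons that follow.

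Levels are in RPKM, the read number of a transcript scaled by its length and by the size of the library. The libraries held 7.13 to 15.6 M reads each, and a floor of 3 reads on a transcript of 1 kb stood at 0.192 to 0.421 RPKM, which covers counting error only. A technical split, absent from the labels, was told by the glycolytic gene Gapdh, which stood at 677 to 1757 RPKM in 14 libraries (the first set, control 1 to 3 and T2DM 1 to 4 of both muscles) and 0.365 to 13.7 RPKM in 10 (the second set, control 4 to 6 and T2DM 5 and 6). The members took 0.952% to 1.69% of the reads in the first set and 1.68% to 2.63% in the second. Whether the sets differ in instrument or library preparation was not tested. Both sets held all 4 groups. Within the second set Gapdh stood at 0.365 to 0.831 RPKM in the control libraries and at 3.71 to 13.7 RPKM in the T2DM libraries. Mouse group cannot be told apart there from whatever lies behind that difference. Values within each set are given for some results, and ranges of levels pool both sets unless a set is named.

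Levels in the control adductor set the scale for what follows. Atp5b, the catalytic beta subunit of ATP synthase, had a median of 902 RPKM, close to the 897 RPKM of Cox6a2. In complex I the medians ran from 35.5 RPKM for Ndufa11 to 467 RPKM for Ndufb9. Complex II ran from 161 RPKM for Sdhd to 231 RPKM for Sdhb. The assembly factors, which help build the complexes without staying in them, were far lower, from 4.71 RPKM for Ndufaf7 to 22.02 RPKM for Ndufaf1.

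In ischemic gastrocnemius against adductor, the ubiquitous complex IV isoform genes Cox6a1 and Cox8a stood higher in both mouse groups, while few subunits of complexes I, II, III and V were called on RPKM. A gene was called when its limma p, adjusted by the Benjamini-Hochberg method over all 12382 genes tested, was under 0.05. In T2DM mice 8 of 92 members were called higher and 2 lower, where 48.1% and 8.83% of all genes were called higher and lower. In control mice 7 were called higher and 6 lower, against 54.4% and 8.70% of all genes. At an unadjusted p under 0.05 the members numbered 15 of 92 in T2DM mice and 14 in control mice, where 61.1% and 66.3% of all genes stood.

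These counts have to be read against a shift of the whole table. The median log2 difference of all genes, gastrocnemius minus adductor, was 0.55 in T2DM mice and 0.66 in control mice, while that of the members was 0.06 and -0.23. With median-of-ratios scaling, which sets the median gene near 0, the median of the members was -0.62 in T2DM mice and -1.03 in control mice. Under that scaling 4 members were called higher and 18 lower in T2DM mice, against 27.3% and 26.5% of all genes, and 4 higher and 44 lower in control mice, against 28.3% and 26.5%. Same-numbered muscles of a mouse group deviated together (r 0.254 to 0.736). The numbers align with the sets of libraries, however, and within the sets r was -0.0901 to 0.627. A fit blocked on that number gave RPKM counts of 23 higher and 7 lower in T2DM mice, against 56.7% and 11.9% of all genes. In control mice it gave 13 higher and 23 lower, against 62.9% and 11.2%.

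**Figure D1:**
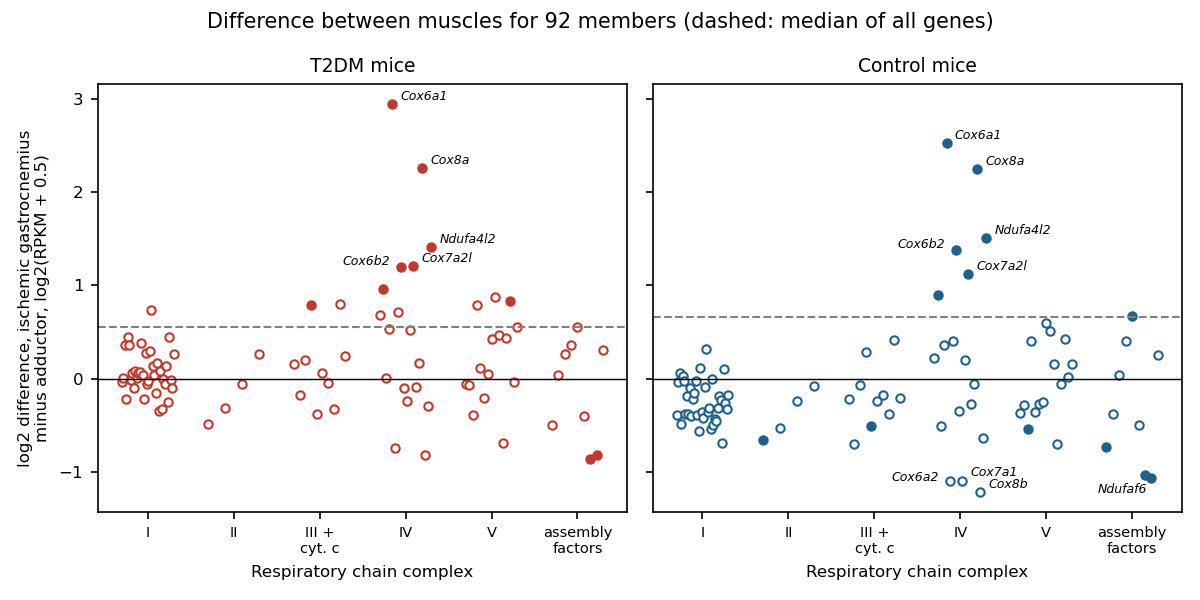
Log2 difference, ischemic gastrocnemius minus adductor, on the log2(RPKM + 0.5) scale for each of 92 members by complex, in T2DM mice (left) and control mice (right). Filled points are members called by limma, the dashed line is the median of all genes tested (0.55 and 0.66), and Cox6a1 and Cox8a of complex IV lie highest in both panels.

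Cox6a1, the ubiquitous form of subunit VIa, ran from 94.6 to 698 RPKM with a median of 211 in T2DM gastrocnemius, against 16.9 to 62.6 RPKM with a median of 26.1 in T2DM adductor. In the control groups it ran from 73.1 to 378 RPKM (median 262) in gastrocnemius, against 18.3 to 71.4 RPKM (median 43.3) in adductor. Every gastrocnemius library lay above every adductor library of the same mouse group. That held for 29.0% of all genes tested in T2DM mice and 33.3% in control mice, and for 3 and 4 of the 92 members. The log2 difference was 2.95 ± 0.47 (SE; adjusted p = 1.3e-05, limma) in T2DM mice and 2.53 ± 0.47 (adjusted p = 6.7e-05) in control mice, and 2.27 and 1.73 with median-of-ratios scaling, both called.

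Cox8a, the ubiquitous form of subunit VIII, gave 93.6 to 277 RPKM with a median of 183 in T2DM gastrocnemius, against 23.1 to 56.7 RPKM with a median of 32.2 in T2DM adductor. In control mice the values were 84.4 to 246 RPKM (median 188) in gastrocnemius and 21.9 to 51.8 RPKM (median 37.9) in adductor. Again the muscles did not overlap in either mouse group. The log2 differences were 2.26 ± 0.29 in T2DM mice (limma adjusted p = 9.7e-07) and 2.25 ± 0.29 in control mice (adjusted p = 8.2e-07). They were 1.58 and 1.45 with median-of-ratios scaling, both called.

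The muscle forms had wide ranges in the gastrocnemius. Cox6a2 ran from 150 to 1569 RPKM (median 521) in T2DM gastrocnemius, against 505 to 1490 RPKM (median 753) in T2DM adductor. The control groups gave 143 to 921 RPKM (median 594) in gastrocnemius, against 556 to 1842 RPKM (median 897) in adductor. Over both sets together the groups overlapped. Within the second set the control muscles did not, at 628 to 921 RPKM in gastrocnemius against 1152 to 1842 RPKM in adductor. The control muscles overlapped in the first set, and the T2DM muscles in each set. Neither log2 difference was called, at -0.74 ± 0.56 in T2DM mice (limma adjusted p = 0.27) and -1.096 ± 0.56 in control mice (adjusted p = 0.092). With the replicate block both were called (adjusted p = 0.038 in T2DM and 0.0039 in control mice).

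Cox8b gave 86.7 to 826 RPKM (median 262) in T2DM gastrocnemius, against 248 to 925 RPKM (median 394) in T2DM adductor. Control mice had 67.9 to 645 RPKM (median 302) in gastrocnemius, against 280 to 1098 RPKM (median 611) in adductor. Its log2 differences of -0.82 ± 0.59 and -1.22 ± 0.59 had limma adjusted p of 0.25 in T2DM mice and 0.077 in control mice, or 0.02 and 0.0014 with the replicate block. Cox7a1 differed by -0.24 ± 0.57 in T2DM mice (adjusted p = 0.74, or 0.5 with the block) and by -1.096 ± 0.57 in control mice (adjusted p = 0.095, or 0.0045 with the block). Its ubiquitous partner Cox7a2 stood at 0.52 ± 0.41 in T2DM mice (adjusted p = 0.29, or 0.0085 with the block) and 0.20 ± 0.41 in control mice (adjusted p = 0.69, or 0.27 with the block), with a negative sign in both mouse groups under median-of-ratios scaling (-0.17 and -0.61).

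**Figure D2:**
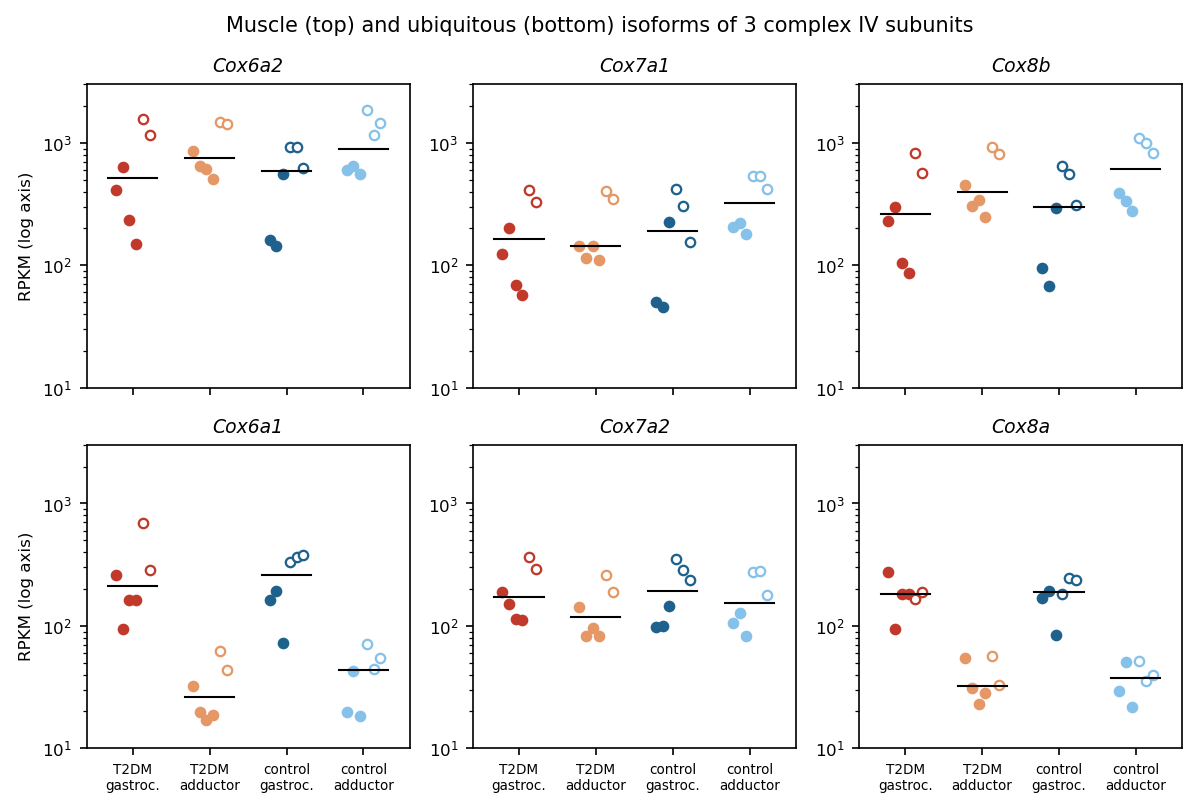
RPKM per library on a log axis for the muscle isoforms Cox6a2, Cox7a1 and Cox8b (top) and the ubiquitous isoforms Cox6a1, Cox7a2 and Cox8a (bottom) in the 4 groups, with filled points for the first set of libraries, open points for the second and a line at each group's median. Cox6a1 and Cox8a do not overlap between gastrocnemius and adductor, and the open points lie above most filled points for the muscle isoforms.

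The share of an isoform in the summed RPKM of its pair does not depend on how a library is scaled. The shares of 6 pairs were compared in 4 contrasts by an exact two-sided permutation test over libraries, with p-values adjusted over the 24 comparisons, of which 12 passed 0.05, those of Cox6b2 between the muscles among them. These tests were added after the levels had been seen, and 0.00216 is the smallest p that 6 against 6 libraries can give.

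Cox6a2 made up 67.5% ± 14.4 of its pair in T2DM gastrocnemius, against 96.7% ± 0.506 in T2DM adductor (SD, n = 6 each), with no overlap (exact permutation p = 0.00216, adjusted 0.00742). The share in control mice was 64.7% ± 16.7 in gastrocnemius, against 96.1% ± 1.13 in adductor, also with no overlap and the same p. Cox8b made up 58.0% ± 22.6 in T2DM gastrocnemius, against 92.3% ± 2.76 in T2DM adductor, and 57.2% ± 21.9 in control gastrocnemius, against 93.4% ± 3.45 in control adductor. Those groups did not overlap either, and each comparison gave an exact permutation p of 0.00216 (adjusted 0.00742).

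The gastrocnemius shares varied widely, and the same libraries stood high or low for each pair. Control gastrocnemius 3 had 88.5% Cox6a2, 77.5% Cox8b and 60.6% Cox7a1, whereas control gastrocnemius 2 had 42.6%, 26.1% and 31.7%. T2DM gastrocnemius 2 had 87.0% Cox6a2, 76.0% Cox8b and 57.1% Cox7a1, whereas T2DM gastrocnemius 4 had 48.0%, 32.2% and 33.9%. All 4 of these libraries belong to the first set. The shares also differed between the sets, and that of Cox8b averaged 47.4% in the first set and 79.2% in the second in T2DM gastrocnemius, and 46.5% and 67.9% in control gastrocnemius. Control gastrocnemius 3 was also the library in which 4 other members stood apart.

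Cox7a1 gave the share that differed between mouse groups as well as between muscles. It made up 45.6% ± 9.67 of its pair in T2DM gastrocnemius, against 58.5% ± 4.72 in T2DM adductor (exact permutation p = 0.0173, adjusted 0.0378). In control mice it made up 45.3% ± 11.9 in gastrocnemius, against 66.8% ± 2.31 in adductor, with no overlap (exact permutation p = 0.00216, adjusted 0.00742). The T2DM comparison of the muscles lost its call without any 1 of 8 of its 12 libraries, with adjusted p up to 0.0693.

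Between mouse groups, the adductor share of Cox7a1 was 50.4% to 64.6% (median 59.1%) in T2DM mice, against 63.7% to 70.2% (median 66.1%) in control mice. The difference was -8.29 percentage points (exact permutation p = 0.00433, adjusted 0.013). The ranges overlapped in the pooled libraries, and within each set every T2DM adductor library lay below every control one, at 50.4% to 60.0% against 63.7% to 68.7% in the first set and 60.6% to 64.6% against 65.9% to 70.2% in the second. Permuting the labels within the sets gave p = 0.00571 (exact permutation, adjusted 0.0152). The second set held 2 T2DM and 3 control adductor libraries. These also differed in Gapdh, at 13.0 and 13.7 RPKM in T2DM against 0.365 to 0.831 RPKM in control adductor. Mouse group and that difference cannot be told apart in the second set. In the gastrocnemius the same share differed by 0.31 percentage points between T2DM and control mice (exact permutation p = 0.957).

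This comparison shares the adductor libraries with the muscle comparisons. The levels differed more for Cox7a1 than for Cox7a2. In the first set the mean level of Cox7a1 in adductor was 128 RPKM in T2DM mice, against 203 RPKM in control mice, and in the second set 375 RPKM in T2DM mice, against 498 RPKM in control mice. For Cox7a2 it was 100.5 RPKM in T2DM mice, against 105 RPKM in control mice, in the first set, and 226 RPKM in T2DM mice, against 244 RPKM in control mice, in the second. As a level over all libraries, Cox7a1 ran from 110 to 402 RPKM (median 144) in T2DM adductor, against 180 to 539 RPKM (median 323) in control adductor, and its log2 difference of -0.80 ± 0.57 was not called (limma adjusted p = 1).

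**Figure D3:**
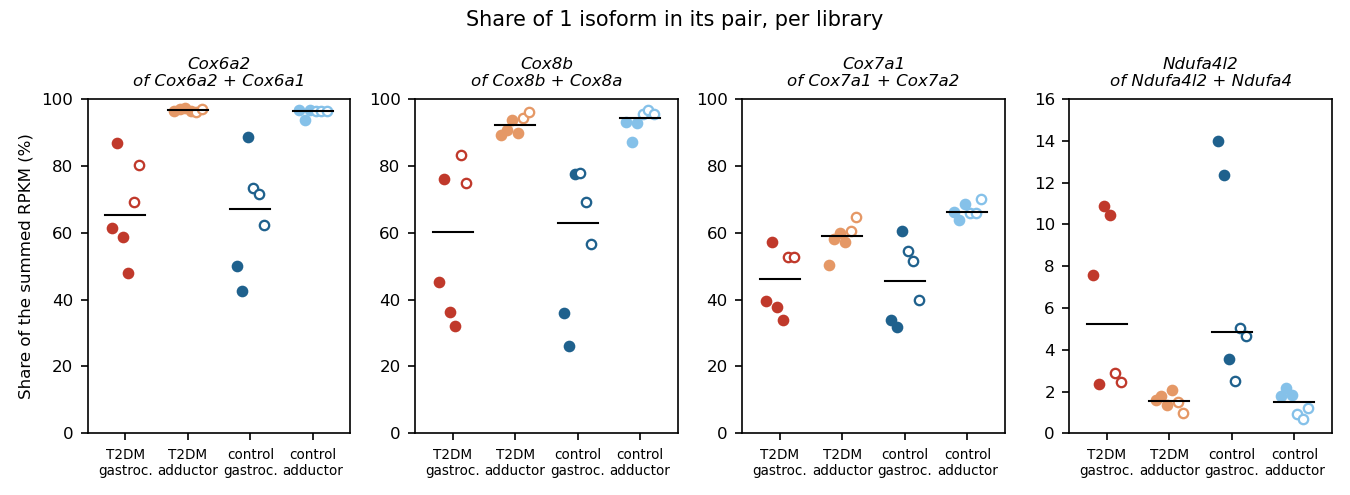
Share in percent of Cox6a2, Cox8b, Cox7a1 and Ndufa4l2 in the summed RPKM of each pair, per library in the 4 groups, with filled points for the first set, open points for the second and a line at the group's median. Adductor libraries lie close together and gastrocnemius libraries spread, and the T2DM adductor shares of Cox7a1 (50.4% to 64.6%) lie below most control adductor shares (63.7% to 70.2%).

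Ndufa4l2, Cox7a2l and Cox4i2 were called higher in ischemic gastrocnemius as well. Ndufa4l2, known as a hypoxia-induced relative of the complex IV subunit Ndufa4, ran from 8.80 to 26.8 RPKM (median 17.4) in T2DM gastrocnemius, against 3.97 to 10.1 RPKM (median 5.51) in T2DM adductor. In control mice it ran from 11.9 to 24.5 RPKM (median 22.2) in gastrocnemius, against 4.78 to 7.62 RPKM (median 6.54) in adductor, with no overlap. Its log2 differences were 1.41 ± 0.24 (limma adjusted p = 3.6e-05) in T2DM mice and 1.505 ± 0.24 (adjusted p = 1.3e-05) in control mice, and both were also called with median-of-ratios scaling (0.76 and 0.74). Its share beside Ndufa4 was 2.34% to 10.9% in T2DM gastrocnemius, against 0.958% to 2.06% in T2DM adductor, and 2.51% to 14.0% in control gastrocnemius, against 0.674% to 2.18% in control adductor (exact permutation adjusted p = 0.00742 in each).

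Cox7a2l, a relative of subunit VIIa known for its part in joining complexes III and IV, gave 85.9 to 178 RPKM (median 121) in T2DM gastrocnemius, against 37.1 to 72.2 RPKM (median 51.6) in T2DM adductor. In control mice it gave 91.0 to 148 RPKM (median 114) in gastrocnemius, against 46.2 to 64 RPKM (median 50.9) in adductor. The muscles did not overlap, and the log2 differences were 1.20 ± 0.19 and 1.12 ± 0.19 (limma adjusted p = 1.2e-05 in T2DM and 2.4e-05 in control mice). In control mice the difference shrank to 0.32 with median-of-ratios scaling and was not called (adjusted p = 0.23).

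Cox4i2, the lung and hypoxia form of subunit IV, was scarce, at 1.90 to 10.9 RPKM (median 3.62) in T2DM gastrocnemius, against 0.802 to 2.63 RPKM (median 1.94) in T2DM adductor. Control mice had 2.28 to 7.15 RPKM (median 3.64) in gastrocnemius, against 0.726 to 3.58 RPKM (median 2.10) in adductor. The log2 differences of 0.96 ± 0.35 and 0.90 ± 0.35 were called (limma adjusted p = 0.022 in T2DM and 0.028 in control mice), though not with median-of-ratios scaling (0.41 and 0.24). Cox4i2 stayed under 1% of its pair in every library, beside 371 to 2146 RPKM of Cox4i1 in T2DM gastrocnemius. Cox6b2, the testis form of subunit VIb, had medians of 1.32 RPKM in T2DM gastrocnemius, against 0.296 RPKM in T2DM adductor, and of 1.59 RPKM in control gastrocnemius, against 0.192 RPKM in control adductor. For its transcript of 509 bases a floor of 3 reads stood at 0.381 to 0.684 RPKM in the adductor libraries, above both adductor medians. It passed the filter on low values through the gastrocnemius libraries, so its calls in both mouse groups, which stand among the counts of members called higher, and those of its share are not read as a difference.

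In complex I, the entry of electrons from NADH, 0 of 36 subunits were called in either mouse group, with 0 at an unadjusted p under 0.05 in T2DM mice and 1 in control mice. The median log2 difference was 0.04 in T2DM mice and -0.29 in control mice, and -0.65 and -1.09 with median-of-ratios scaling, under which 5 subunits were called lower in T2DM mice and 18 in control mice, against 26.5% of all genes in each. With the replicate block 3 were called higher in T2DM mice, against 56.7% of all genes, and 8 lower in control mice, against 11.2%. Ndufs1, the large iron-sulfur subunit, ran from 40.2 to 80.4 RPKM (median 58.1) in T2DM gastrocnemius, against 53.6 to 114 RPKM (median 66.1) in T2DM adductor, and from 46.7 to 93.4 RPKM (median 61.1) in control gastrocnemius, against 76.7 to 120 RPKM (median 85.3) in control adductor. Its log2 differences were -0.35 ± 0.23 and -0.50 ± 0.23 (limma adjusted p = 0.21 in T2DM and 0.066 in control mice), and both were called with median-of-ratios scaling (-1.03 and -1.30). Ndufv1, which binds NADH, differed by -0.02 ± 0.21 in T2DM mice and -0.26 ± 0.21 in control mice, not called.

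Sdha, the flavoprotein of complex II and an enzyme of the citric acid cycle too, was the called member of its complex. It ran from 92.6 to 180 RPKM (median 113) in T2DM gastrocnemius, against 118 to 262 RPKM (median 156) in T2DM adductor, and from 94.8 to 178 RPKM (median 125) in control gastrocnemius, against 172 to 249 RPKM (median 196) in control adductor. In control mice the highest gastrocnemius library exceeded only the low end of the adductor libraries. The log2 difference was -0.66 ± 0.23 in control mice, called (limma adjusted p = 0.015), and -0.48 ± 0.23 in T2DM mice, not called (adjusted p = 0.073, or 0.033 with the block). Sdhb, the iron-sulfur subunit, differed by -0.31 ± 0.29 and -0.53 ± 0.29, not called in T2DM or control mice (adjusted p = 0.38 and 0.12), and called in control mice with the block (adjusted p = 0.03).

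In complex III, which passes electrons from ubiquinol to cytochrome c, Uqcrb, the ubiquinone-binding subunit, fell in control mice by 0.51 ± 0.21 on the log2 scale (limma adjusted p = 0.035). It ran from 107 to 237 RPKM (median 117) in control gastrocnemius, against 156 to 230 RPKM (median 201) in control adductor. Uqcr11, the smallest subunit of the complex, was called higher in T2DM mice at 0.79 ± 0.32 (adjusted p = 0.04), with 201 to 834 RPKM (median 327) in T2DM gastrocnemius, against 144 to 262 RPKM (median 210) in T2DM adductor. With median-of-ratios scaling its difference was 0.10, not called (adjusted p = 0.84). Uqcrc1, Uqcrfs1, Cyc1 and Cycs, which are a core protein, the Rieske iron-sulfur protein, cytochrome c1 and cytochrome c, were not called in either mouse group, with log2 differences of 0.06, -0.32, 0.15 and -0.17 in T2DM mice and -0.24, -0.38, -0.22 and -0.70 in control mice. Of these, Cycs was called in control mice with the block (adjusted p = 0.0091).

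In complex V, Atp5b had medians of 675 RPKM in T2DM gastrocnemius and 674 RPKM in T2DM adductor, and of 674 RPKM in control gastrocnemius and 902 RPKM in control adductor. Its log2 differences of -0.06 ± 0.25 and -0.28 ± 0.25 were not called (limma adjusted p = 0.85 in T2DM and 0.33 in control mice). Atp5c1, the gamma subunit of the rotor stalk, fell in control mice by 0.54 ± 0.23 on the log2 scale (adjusted p = 0.041), with 182 to 349 RPKM (median 190) in control gastrocnemius, against 253 to 377 RPKM (median 307) in control adductor. Atp5k, the small membrane subunit e, was called higher in T2DM mice at 0.84 ± 0.36 (adjusted p = 0.048), with 210 to 1087 RPKM (median 393) in T2DM gastrocnemius, against 167 to 314 RPKM (median 224) in T2DM adductor. With median-of-ratios scaling that difference was 0.15 and not called.

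Among the 9 assembly factors the calls ran both ways. Ndufaf6, needed to build complex I, ran from 3.71 to 9.23 RPKM (median 6.35) in T2DM gastrocnemius, against 8.02 to 18.7 RPKM (median 9.94) in T2DM adductor, and from 3.61 to 9.38 RPKM (median 7.07) in control gastrocnemius, against 8.79 to 21.8 RPKM (median 13.1) in control adductor. The ranges overlapped only where the highest gastrocnemius and lowest adductor libraries met. It fell by 0.82 ± 0.27 on the log2 scale in T2DM mice and by 1.07 ± 0.27 in control mice (limma adjusted p = 0.012 and 0.0015). Ndufaf5, a methyltransferase-family factor of complex I, fell by 0.87 ± 0.28 and 1.03 ± 0.28 (adjusted p = 0.012 in T2DM and 0.0029 in control mice). Atp5s, coupling factor B, fell in control mice by 0.74 ± 0.32 (adjusted p = 0.047).

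Ndufaf3, an early factor of complex I, was called in the other direction in control mice, at 0.67 ± 0.25 (limma adjusted p = 0.024), with 9.01 to 18.2 RPKM (median 14.3) in control gastrocnemius, against 4.73 to 11.7 RPKM (median 9.04) in control adductor. Its sign turned with median-of-ratios scaling (-0.09, not called). Ndufaf5 and Ndufaf6 were called lower in both mouse groups under either scaling and under the block.

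Markers of other cells moved with these differences, in a table where 48.1% of all genes in T2DM mice and 54.4% in control mice were called higher. The summed RPKM of 8 macrophage markers was 290 to 1182 in T2DM gastrocnemius, against 46.1 to 94.6 in T2DM adductor, and 356 to 1406 in control gastrocnemius, against 27.7 to 230 in control adductor, and 7 of the 8 were called higher in each mouse group. All 5 fibroblast markers, all 4 proliferation markers and all 4 markers of regenerating fibres (Myh3, Myh8, Myog and Myod1) were called higher in both mouse groups, the last with sums of 431 to 1013 RPKM in T2DM gastrocnemius, against 12.7 to 54.4 RPKM in T2DM adductor, and of 525 to 912 RPKM in control gastrocnemius, against 12.0 to 107 RPKM in control adductor. The 4 proliferation markers had medians under 1 RPKM in both adductor groups. They passed the filter on low values through the gastrocnemius libraries, so their calls are not read as a difference. Of 5 endothelial markers 3 were called higher in each mouse group, and of 4 adipocyte and 3 erythroid markers 0 were called.

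Muscle fibre markers showed that every group was muscle. Their summed RPKM over 8 genes was 17120 to 54160 in T2DM gastrocnemius, against 30040 to 67780 in T2DM adductor, and 13500 to 50840 in control gastrocnemius, against 36750 to 74410 in control adductor. Acta1 had the largest mean of the 8 in every group. Mean levels of Acta1, Ckm, Tnnt3, Mb and Ttn were lower in gastrocnemius in both mouse groups. Ckm had 5004 against 11430 RPKM in T2DM mice and 4129 against 14410 RPKM in control mice. Tnnt1 was higher in both, and Mylpf and Des turned between the mouse groups. Of 6 fast-fibre markers 2 were called lower in T2DM mice and 3 in control mice, against 8.83% and 8.70% of all genes. Of 5 slow-fibre markers 2 (Tnnc1 and Tnni1) were called higher and 3 (Myh7, Myl2 and Myl3) lower in each mouse group. No marker in these lists was at 0 in every library, and Ucp1 of brown adipocytes did not exceed 0.753 RPKM. In bulk tissue, fewer cells of a type and less RNA per cell cannot be told apart, and the part of these cells in the isoform shares was not tested.

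Of 17 genes of the citric acid cycle with the pyruvate dehydrogenase subunits, 0 were called higher and 4 lower in T2DM mice, with a median log2 difference of -0.38, and 1 higher and 7 lower in control mice, with a median of -0.53. Beside this list and the lists that follow, 48.1% of all genes were called higher and 8.83% lower in T2DM mice. In control mice the shares were 54.4% and 8.70%. Idh3b, a subunit of the NAD-linked isocitrate dehydrogenase, fell by 0.99 ± 0.30 on the log2 scale in T2DM mice and by 1.002 ± 0.30 in control mice (limma adjusted p = 0.0077 and 0.0062). It had 23.3 to 124 RPKM (median 61.2) in T2DM gastrocnemius, against 98.2 to 156 RPKM (median 114) in T2DM adductor, and 33.9 to 126 RPKM (median 54.4) in control gastrocnemius, against 95.3 to 147 RPKM (median 125) in control adductor.

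Of 27 assembly and maturation factors outside the symbol rule, 6 were called higher and 2 lower in T2DM mice and 7 higher and 4 lower in control mice. Atpif1, the inhibitor protein of ATP synthase, had the largest difference of the list, at 2.54 ± 0.56 in T2DM mice and 2.31 ± 0.56 in control mice (limma adjusted p = 0.00052 and 0.0011), and was called with median-of-ratios scaling too (1.87 and 1.52). Its medians were 92.02 RPKM in T2DM gastrocnemius, against 14.4 RPKM in T2DM adductor, and 156 RPKM in control gastrocnemius, against 30.4 RPKM in control adductor.

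Of 15 carriers and energy-transfer genes, 2 were called higher and 6 lower in T2DM mice and 2 higher and 5 lower in control mice. Slc25a5, the adenine nucleotide carrier of proliferating cells, had 51.4 to 205 RPKM (median 126) in T2DM gastrocnemius, against 8.10 to 20.7 RPKM (median 17.6) in T2DM adductor, and 45.1 to 214 RPKM (median 82.3) in control gastrocnemius, against 10.6 to 38.2 RPKM (median 13.4) in control adductor. The muscles did not overlap, and the log2 differences were 2.85 ± 0.42 and 2.66 ± 0.42 (limma adjusted p = 5.2e-06 in T2DM and 9.7e-06 in control mice), as against 2.18 and 1.86 with median-of-ratios scaling. Slc25a4, the carrier of muscle and heart, named after its values were seen, was called lower in control mice (adjusted p = 0.023) and not in T2DM mice (-0.78 ± 0.39, adjusted p = 0.093).

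Of 18 regulators of mitochondrial biogenesis, 2 were called higher and 3 lower in T2DM mice and 4 higher and 5 lower in control mice. Ppargc1a, the coactivator PGC-1 alpha, fell in control mice by 0.94 ± 0.26 on the log2 scale (limma adjusted p = 0.0036), with 1.40 to 5.25 RPKM (median 2.53) in control gastrocnemius, against 4.93 to 6.86 RPKM (median 5.33) in control adductor. In T2DM mice it had 1.79 to 7.01 RPKM (median 3.05) in gastrocnemius, against 4.26 to 5.50 RPKM (median 4.96) in adductor, and a difference of -0.53 ± 0.26 that was not called (adjusted p = 0.092) except with median-of-ratios scaling (-1.12, adjusted p = 0.0035). The 3 called lower in T2DM mice, Esrrb, Esrrg and Ppara, were called lower in control mice too. Esrrb had medians of 0.382 RPKM in T2DM gastrocnemius and 0.323 RPKM in control gastrocnemius, with 1.06 to 1.63 RPKM in T2DM adductor. It passed the filter on low values through the adductor libraries. Its calls, which stand among the counts of regulators called lower, are therefore not read as a difference. Ppara had a median of 0.698 RPKM in control gastrocnemius, so its call in control mice is not read either. Gabpb1, a subunit of the ETS-family factor GABP, was called higher at 1.097 ± 0.24 in T2DM mice and 1.08 ± 0.24 in control mice (adjusted p = 0.00052 and 0.00051), though not with median-of-ratios scaling (0.53 and 0.37).

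Between T2DM and control mice no member was called in either muscle. In adductor 0 of 92 were called higher and 0 lower, against 0.0323% and 0.00% of all genes, with 0 members at an unadjusted p under 0.05 in limma and 0 called by voom on the recovered reads. In gastrocnemius 0 were called in either direction, against 0.00808% and 0.00%, again with 0 at an unadjusted p under 0.05 and 0 by voom. For the difference between the T2DM effects of the muscles 0 members were called, against 0.00% of all genes in each direction, with 0 at an unadjusted p under 0.05 and 0 by voom. In the list of carriers and energy transfer, 1 gene, the NAD(P) transhydrogenase gene Nnt, was called higher in T2DM mice in both muscles. It ran from 18.0 to 47.2 RPKM in T2DM adductor, against 3.90 to 6.71 RPKM in control adductor. In gastrocnemius it ran from 12.8 to 31.6 RPKM in T2DM mice, against 4.72 to 8.52 RPKM in control mice. Whether this goes with diabetes or with another difference between the mouse groups was not tested.

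The members nonetheless lay mostly on 1 side of 0 in adductor, where the median log2 difference, T2DM minus control, was -0.29 over the members and 0.04 over all genes, and 7 of 92 members were positive, against 57.0% of all genes. Members share libraries, so this count is a description of 6 against 6 libraries. Within the first set the median was -0.12 with 17 positive, and within the second -0.13 with 29 positive, and 50 members were negative in both sets. Over all genes the adductor medians in the first and second set were -0.008 and 0.105, with 48.6% and 65.8% positive. In gastrocnemius the median was 0.02, against -0.06 over all genes, and 51 of 92 members were positive, against 36.7% of all genes. Within the sets it was 0.17 and 0.18, with 65 members positive in both. Over all genes the gastrocnemius medians in the sets were -0.05 and -0.16, with 39.0% and 29.7% positive. The share of all genes with the same sign in both sets was not computed. The T2DM groups held 2 of 6 libraries of the second set and the control groups 3 of 6, and most members were higher in that set.

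Besides Cox7a1, adductor members among those with the smallest p were subunits of several complexes. Ndufs1 differed by -0.30 ± 0.23, Uqcr11 by -0.40 ± 0.32 and Sdhd, a membrane anchor of complex II, by -0.45 ± 0.36, and each had an adjusted p of 1. Among these 3, the sign turned within the second set for Ndufs1 (0.11) and Sdhd (0.01). Each of these groups overlapped.

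**Figure D4:**
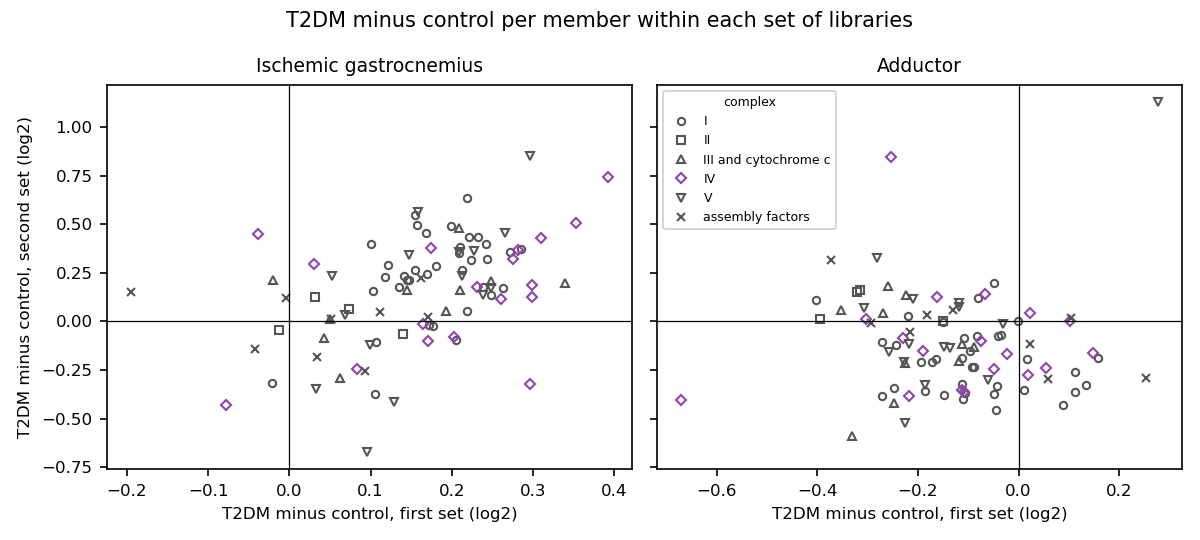
Log2 difference, T2DM minus control, of each member within the first set (horizontal axis) and the second set of libraries (vertical axis), in ischemic gastrocnemius (left) and adductor (right), with a marker for each complex and complex IV in purple. In gastrocnemius 65 of 92 members lie above 0 in both sets, and in adductor 50 lie below 0 in both.

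In gastrocnemius the smallest p-values belonged to Atp5h, Ndufs3, Atp5g1, Cox7c and Atp5g2, with log2 differences, T2DM minus control, of 0.22 ± 0.22, 0.28 ± 0.34, 0.76 ± 0.83, 0.62 ± 0.71 and 1.72 ± 2.10 and a limma adjusted p of 1 each. All but Atp5h lay lower in the second set of libraries in all 4 groups. For the difference between the T2DM effects, gastrocnemius minus adductor, members among those with the smallest p-values were Uqcr11 (0.51 ± 0.46), Atp5o (0.39 ± 0.37), Cox7a1 (0.85 ± 0.80) and Cyc1 (0.37 ± 0.36), with an adjusted p of 1 each.

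The level of most members differed between the sets of libraries. In all 4 groups 70 of 92 members were higher in the second set, with a median log2 difference, second minus first set, of 0.93 over the members and -0.11 over all genes. Another 8, Atp5g1, Atp5g2, Atp5l, Cox7c, Cycs, Ndufab1, Ndufs3 and Uqcrb, were lower in the second set in all 4 groups. Short words of 31 bases from each member's transcript were looked up in the transcripts of all other genes in the GENCODE annotation. In 9 members at least 50% of the words were also found in another gene, and 7 of these had a negative mean difference between the sets (median -0.97), as against 7 of the other 83 (median 1.01). Of the 9, Atp5o (63.2% of words shared, 0.63) and Ndufa12 (59.0%, 0.93) were higher in the second set. Ndufab1 (13.2%), Cycs (32%), Atp5j, Cox5b, Ndufb4, Ndufs5 and Cox7a2l had a negative mean difference with fewer shared words. How reads that match several places were treated is not given in the sources used here, and the part of such reads was not tested.

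**Figure D5:**
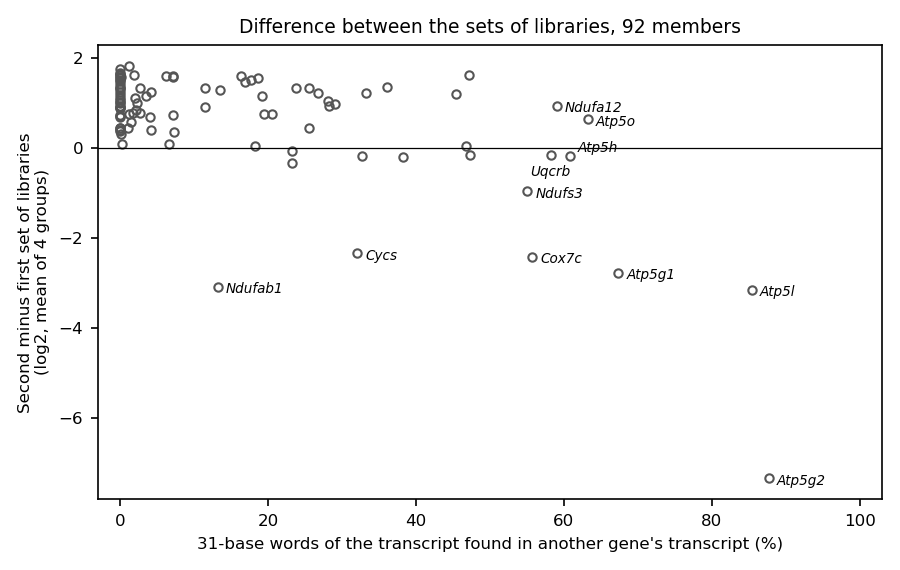
Mean log2 difference over the 4 groups, second minus first set of libraries, of each of 92 members against the percent of 31-base words of its transcript found in another gene's transcript. Atp5g2 lies lowest at -7.35 with 87.7% of its words shared, and most members with few shared words lie near 1.

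Atp5g1, Atp5g2 and Atp5g3 encode the same mature subunit c with different import sequences. In the first set Atp5g2 made up 20.95% to 31.1% of their summed RPKM in T2DM gastrocnemius, 26.6% to 34.7% in T2DM adductor, 19.5% to 31.9% in control gastrocnemius and 19.98% to 25.6% in control adductor. In the second set it made up under 1% in every library, from 0.0157% to 0.239%, and Atp5g3 made up 95.3% to 97.9%. Atp5g3 itself ran from 440 to 1780 RPKM in T2DM gastrocnemius, against 264 to 878 RPKM in T2DM adductor, with a log2 difference of 0.88 ± 0.46 (limma adjusted p = 0.11, or 0.00035 with the block). Among the isoform genes, 23.8% of the words of Cox6a1, 23.3% of Cox7a2l, 16.9% of Cox4i1, 6.15% of Cox6a2 and 4.13% of Cox7a2 were shared, and 0% of Cox7a1, Cox8a and Cox8b.

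On the deposited table's build, mm9, Cox6a1 occupies chromosome 5, 115795663 to 115798964 (minus strand), and Cox8a chromosome 19, 7289648 to 7292106 (minus strand). Cox7a1 lies on chromosome 7, 30969190 to 30971049 (plus strand), and Cox7a2 on chromosome 9, 79603048 to 79607660 (minus strand). The RPKM values were computed over the exons of transcripts of 532 bases for Cox6a1, 544 for Cox8a, 365 for Cox7a1 and 753 for Cox7a2. Short transcripts are common here, as 62 of the 94 members are under 1 kb.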

How the data were processed

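Poly(A) RNA of 24 mouse muscle libraries was analysed from a deposited table of RPKM values, which the authors computed with HOMER over RefSeq exons of build mm9, per the file headers. The submitters' processing notes also name TopHat, without versions. The headers show no strand option, so overlapping genes cannot be told apart. RPKM times transcript length and library total gave whole reads, within 0.01, for 99.97% of values.

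Where a symbol had several transcripts, the 1 with the largest mean RPKM stood for it. Genes at 1 RPKM or more in at least 6 libraries (12382) entered limma 3.58.1 (R 4.3.3) on log2(RPKM + 0.5) with 4 group means and an intensity trend, called at an adjusted p of 0.05. Such log2 differences understate changes of low genes. The main fit was also run on simulated data, drawn as independent normal values without the sets of libraries. Isoform shares were compared in Python 3.11.15 with exact permutation tests. Alternatives were other pseudocounts (0.1 and 1), no filter, median-of-ratios and quantile scaling, voom on recovered reads, terms for the sets of libraries, each set alone, a replicate block and leaving out each library.

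Same-numbered muscles of a mouse group deviated together (r 0.254 to 0.736 over 12 pairs, -0.0901 to 0.627 within the sets), though numbers align with the sets. Same-numbered T2DM and control libraries did not all do so (-0.659 to 0.822).

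Members and gene lists were chosen with earlier results of these data known. Named were the isoform families and redox-centre subunits, the extremes and minority calls of each complex, the 5 smallest p-values of each T2DM contrast, the largest call of each list, and Ppargc1a. Of the members so named, 1 is not reported here.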

Additional observations from a re-analysis of the deposited data

Results flagged for a closer look

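Among 38 named members and 6 isoform shares in 4 groups of 6 libraries, 176 sets of values were examined for a library far from the other 5, and 11 had one. Chance gives about 1 in 20.

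Control gastrocnemius 3 stood apart in 4 members, with 348.6 RPKM of Atp5c1 (others up to 235.4), 410.1 RPKM of Atp5g1 (others up to 150.7), 85.68 RPKM of Cycs (others up to 34.24) and 165.3 RPKM of Ndufs3 (others up to 88.59). T2DM gastrocnemius 5 stood apart in another 4, with 1087 RPKM of Atp5k (others up to 496.9), 10.91 RPKM of Cox4i2 (others up to 5.166), 697.7 RPKM of Cox6a1 (others up to 287) and 834.2 RPKM of Uqcr11 (others up to 401.6). In T2DM adductor 5 Ndufa4l2 was at 10.07 RPKM, with the others at 3.974 to 6.163. In control adductor 6 Ndufaf5 was at 14.38 RPKM, with the others at 6.173 to 8.514. In control adductor 2 the share of Cox6a2 in its pair was 93.81%, with the others at 96.27% to 96.82%.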

How the results depend on the processing

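No member was called in a T2DM contrast under any alternative tried. For ischemic gastrocnemius minus adductor, the counts higher and lower in control mice (7 and 6) became 4 and 44 with median-of-ratios scaling, 4 and 32 with quantile scaling, 9 and 15 with terms for the sets of libraries, 10 and 21 in the second set alone and 13 and 23 with the replicate block. In T2DM mice (8 and 2) they became 4 and 18, 4 and 16, 19 and 5, 16 and 7, and 23 and 7 in the same order of settings. Over all genes, 25.5% and 28.3% were called higher and lower in control mice with quantile scaling, 66.1% and 7.12% with set terms and 51.3% and 12.2% in the second set alone. In T2DM mice the shares were 24.5% and 28.8%, 60.5% and 9.26%, and 35.2% and 13.1%. Leaving out 1 library gave 5 to 7 higher and 3 to 10 lower in control mice, with 3 lower without control adductor 5, control gastrocnemius 1 or control gastrocnemius 2 and 10 without control gastrocnemius 4, and 5 to 11 higher and 2 to 3 lower in T2DM mice, with 5 higher without T2DM adductor 3. The T2DM contrasts stayed at 0 in each. Signs are given for the named members alone, and those that turned were not called under that alternative. In control mice these were Atp5g2 (-0.03 with median-of-ratios, -0.19 with quantile scaling), Atp5g3 (-0.30), Cox4i1 (-0.59 and -0.11), Cox6b1 (-0.40), Cox7a2 (-0.61 and -0.16) and Ndufaf3 (-0.09), and Atp5g1 in the second set alone (0.01). In T2DM mice they were Atp5g1 (-0.64, -0.41, -0.01 with voom, and -0.13 with set terms and -0.13 in the first set alone), Atp5g2 (-0.22 and -0.11), Cox7a2 (-0.17), Cyc1 (-0.53, -0.23, and -0.24 in the second set alone), Uqcrc1 (-0.62, -0.36, and -0.09 in the second set alone), and with set terms and in the first set alone Atp5b (0.11 and 0.17) and Ndufv1 (0.04 and 0.06). Of all 92 members, 14 in control mice and 33 in T2DM mice had opposite signs in the sets. For T2DM minus control, among the members named for their small p, the second set alone turned Ndufs1 (0.11) and Sdhd (0.01) in adductor, Ndufs3 (-0.02) in gastrocnemius and Cyc1 (-0.01) in the difference of effects, while of all 92 members 38, 23 and 27 had opposite signs in the sets. The cause was not tested. With same-numbered libraries as a replicate block in the isoform shares (an exact sign-flip test, added after the data were seen), 12 comparisons gave the smallest possible p of 0.0312 (exact), adjusted 0.0625, so that test cannot pass. Permuting within the sets left 11 of the 12 calls, and Cox6b2 in control mice missed at 0.06. In the first set alone, and in the second set alone, all 12 calls were lost, where few libraries limit how small p can be. Leaving out 1 library lost a call of a share 17 times. For scarce members such as Cox6b2 and Cox4i2, depth limits precision.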
